A study of Mus musculus with 6 samples.

Results

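Cohesin is a ring of SMC1A, SMC3 and RAD21 that carries STAG1 or STAG2 as a further subunit. The ring is loaded onto DNA by NIPBL and MAU2, is held or released by PDS5A or PDS5B with WAPL, and is locked around sister chromatids when ESCO1 or ESCO2 acetylates SMC3. In interphase nuclei the ring extrudes loops of chromatin, which stop where the zinc finger protein CTCF is bound, so that cohesin and CTCF together shape the contacts of genes with distant elements. The 10 genes described here are Smc1a, Smc3, Rad21, Stag1, Stag2, Nipbl, Pds5a, Pds5b, Ctcf and Esco2, taken by symbol from the 29955 genes of the deposited expression table. Each symbol was found once, and all 10 genes had enough reads to be tested.

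The series asks how gene expression depends on RNF40, a subunit of the E3 ligase that attaches a single ubiquitin to histone H2B. RNA was sequenced from primary mouse embryo fibroblasts (MEFs) at passage 3, grown from embryos homozygous for Rnf40 alleles in which exons 3 and 4 lie between loxP sites, with a Cre recombinase that tamoxifen activates (CreERT2) expressed in all cells from Rosa26. The Rnf40_KO cells received 250 nM 4-hydroxytamoxifen (4-OHT) for 5 days and were kept for another 3 days without it. The sources do not state whether the Rnf40_WT cells of these libraries received 4-OHT, so loss of the gene and exposure to the drug cannot be told apart. There were 3 libraries per group, and the sources do not say whether they come from separate embryos, so that p-values measure only the spread between these libraries, which may be technical.

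Values are normalized counts, the reads on a gene scaled by a size factor that is fixed within a library. Dividing by the value of 1 read gave whole numbers (tolerance 0.1) for 100% of positive values in all 6 libraries, so the reads behind each value are known. Depth was 17053436, 20781071 and 26344170 reads in Rnf40_WT, against 18741606, 18115481 and 20495627 in Rnf40_KO. A gene with 3 reads, taken as the floor of detection, has a normalized count between 2.40 and 3.58. Groups were compared with limma on log2(normalized count + 1), a scale that understates the change of genes with few reads, with Benjamini-Hochberg adjustment over the 16378 genes tested. An exact permutation test of 3 libraries against 3 cannot give p below 0.1, so none is given for single genes or ratios.

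The deleted gene was lower in each library labelled as knockout. Rnf40 had normalized counts of 1278, 1195 and 1096 in Rnf40_WT and 439, 519 and 487 in Rnf40_KO. The values cover the whole transcript and not the deleted exons alone. Replicate 3 of Rnf40_WT stood apart from the other libraries of its group, with a chi-square per gene of 28.3 and 25.6 against replicates 1 and 2, which differed from each other by 7.85. Without that library, 3 of the 10 genes were called lower and 2 higher, as with it.

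At an adjusted p under 0.05 (limma), 5 of the 10 genes were called, against 47.4% of all genes tested. Esco2, Pds5b and Smc1a were lower in Rnf40_KO, where 24.1% of all genes were lower. Rad21 and Stag2 were higher, where 23.3% of all genes were higher. The called share of the 10 genes was thus near that of the whole table. Only the fall of Esco2 was large, to 10.3% of the Rnf40_WT mean, while the means of the other 9 genes in Rnf40_KO lay between 73.6% of that mean (Pds5b) and 120% (Stag2). The median of the absolute log2 fold changes was 0.21 over the 10 genes and 0.33 over all genes tested. The groups did not overlap for 3 genes that were lower and 2 that were higher, and this held for 28.7% and 27.8% of all genes tested.

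**Figure D1:**
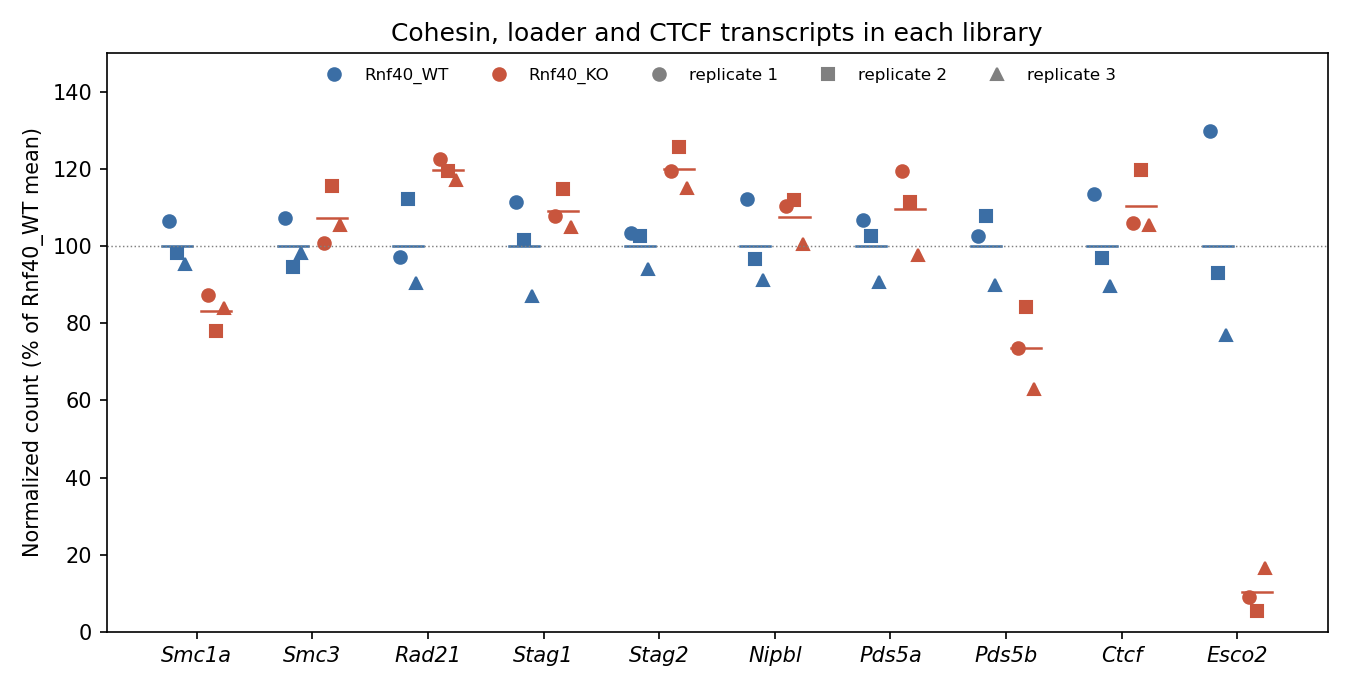
Normalized count of each of the 10 genes in every library, as a percent of the gene's Rnf40_WT mean; symbols are libraries, short lines are group means (n = 3) and the dotted line marks 100%. The Rnf40_KO group mean of Esco2 is at 10.3%, and those of the other genes lie between 73.6% and 120%.

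Smc1a encodes an SMC arm of the ring and lies on the plus strand of the X chromosome (mm9, chrX:148450971-148497237). Its normalized counts were 1789, 1652 and 1604 in Rnf40_WT and 1469, 1311 and 1413 in Rnf40_KO. Each knockout library was below each wild-type library. The mean fell from 1682 ± 95.9 to 1398 ± 80.3 (SD, n = 3 each), and the log2 fold change was -0.27 (SE 0.07, limma adjusted p = 0.0095). Without replicate 2 of Rnf40_KO the value was -0.22 and the adjusted p 0.053, and over the other libraries left out in turn and the other settings it lay between 0.0041 and 0.037.

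Smc3 encodes the partner arm, the one that carries the acetylated lysines, and lies at chr19:53674886-53720323 on the plus strand. It had normalized counts of 1381, 1219 and 1267 in Rnf40_WT and 1297, 1487 and 1360 in Rnf40_KO, and the groups overlapped. The log2 fold change was 0.10, with a 95% interval from -0.07 to 0.27 (limma adjusted p = 0.32). The SMC arms thus differed in call, and their ratio can be read within each library. Per kilobase of transcript, Smc1a stood at 1.34, 1.40 and 1.31 times Smc3 in Rnf40_WT and at 1.17, 0.911 and 1.07 times Smc3 in Rnf40_KO. These ratios did not overlap between the groups. The Rad21 to Smc3 ratios did, at 1.78, 2.33 and 1.81 in Rnf40_WT and 2.39, 2.03 and 2.18 in Rnf40_KO.

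Rad21 encodes the kleisin that closes the ring and lies at chr15:51794151-51823306 on the minus strand. Its normalized counts were 1828, 2109 and 1702 in Rnf40_WT and 2305, 2243 and 2201 in Rnf40_KO. The knockout libraries lay close together, above all wild-type libraries, which were more spread. The rise was from 1880 ± 208 to 2249.7 ± 52.6 (SD, n = 3 each), with a log2 fold change of 0.26 (SE 0.08, limma adjusted p = 0.017). The call was lost in 2 of the 3 fits that left out a knockout library, with an adjusted p of 0.072 without replicate 1 (log2 fold change 0.25) and 0.052 without replicate 2 of Rnf40_KO (0.27). It was kept without replicate 3 (0.28, adjusted p = 0.038), and the adjusted p lay between 0.0029 and 0.043 over the other libraries left out in turn and the other settings.

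The STAG subunits occur in alternative forms of the ring, and both forms are common in somatic cells. Stag2, at chrX:39502494-39630362 on the plus strand, had normalized counts of 1824, 1812 and 1658 in Rnf40_WT and 2107, 2219 and 2029 in Rnf40_KO. Its lowest knockout library was above its highest wild-type library, and the log2 fold change was 0.26 (SE 0.07, limma adjusted p = 0.0072). Stag1, at chr9:100498217-100858964 on the plus strand, had 1049.7, 957 and 819 in Rnf40_WT and 1014, 1080.2 and 987 in Rnf40_KO. Those values overlapped, and the log2 fold change of Stag1 was 0.13 with a 95% interval from -0.07 to 0.33. Per kilobase, Stag2 was at 1.74, 1.90 and 2.03 times Stag1 in Rnf40_WT and at 2.08, 2.06 and 2.06 times Stag1 in Rnf40_KO. Stag2 was thus the more abundant transcript of this pair in each of the 6 libraries.

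Smc1a, Stag2 and the deacetylase gene Hdac8 lie on the X chromosome. Xist, the RNA of the inactive X chromosome, had normalized counts between 7178 and 9616 in the 6 libraries. The Y-linked Ddx3y stood at 81.2 in replicate 1 of Rnf40_WT and between 0 and 7.14 in the other 5 libraries. The Y-linked Eif2s3y and Kdm5d stood at 39.4 and 5.97 there and at no more than 2.04 and 1.04 in the other 5. Uty, also Y-linked, was less clear, at 20.3 there, 13.6 in replicate 3 of Rnf40_WT and between 2.83 and 6.26 in the other 4. The X-linked Kdm5c and Kdm6a were higher in Rnf40_KO, with log2 fold changes of 0.38 and 0.35 (limma adjusted p = 0.00071 and 0.028). Kdm6a lost its call in 4 of the 6 fits that left out a library, with values from 0.21 to 0.38 in those 4 and adjusted p from 0.051 to 0.13, against 0.0033 to 0.034 over its other alternatives. The X-linked Ddx3x was not called, with a log2 fold change of 0.01 (95% interval -0.16 to 0.18). Without replicate 1 of Rnf40_WT, the log2 fold changes were -0.22 for Smc1a, 0.29 for Stag2 and -0.46 for Hdac8, each with a limma adjusted p under 0.05. Xist, the Y-linked genes, Kdm5c, Kdm6a and Ddx3x were chosen after their values were seen.

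Nipbl encodes the large subunit of the loader and lies at chr15:8241225-8394463 on the minus strand. It had normalized counts of 1126, 969.8 and 914 in Rnf40_WT and 1106, 1122 and 1009 in Rnf40_KO. The groups overlapped, and the log2 fold change was 0.11 with a 95% interval from -0.08 to 0.30 (limma adjusted p = 0.34). Mau2, the gene of its loading partner, rose from 939.9, 992 and 993 to 1463, 1655 and 1374, with a log2 fold change of 0.61 (SE 0.08, limma adjusted p = 6.35e-05). All knockout libraries of Mau2 were above all wild-type libraries, and 1.84% of the 50-base runs of its transcript recur in other coding genes. Per kilobase, the Nipbl to Mau2 ratio was 0.730, 0.596 and 0.561 in Rnf40_WT and 0.461, 0.413 and 0.448 in Rnf40_KO. The ratio was lower in each knockout library than in each wild-type library.

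The PDS5 proteins bind the ring near its kleisin and act in both release and acetylation of cohesin. Pds5b, at chr5:151476314-151613265 on the plus strand, had normalized counts of 837, 879 and 733 in Rnf40_WT and 602, 687 and 515 in Rnf40_KO. Its groups did not overlap, and its mean fell from 816 ± 75.2 to 601 ± 86.1 (SD, n = 3 each), with -0.45 as the log2 fold change (SE 0.11, limma adjusted p = 0.0054). Pds5a, on the same chromosome at chr5:66006499-66089095 on the minus strand, had 1069, 1029 and 909.6 in Rnf40_WT and 1197, 1116 and 979 in Rnf40_KO. These overlapped, and the log2 fold change of Pds5a was 0.13 with a 95% interval from -0.07 to 0.33. Per kilobase, Pds5a stood at 2.28, 2.09 and 2.22 times Pds5b in Rnf40_WT and at 3.56, 2.91 and 3.40 times Pds5b in Rnf40_KO. The ratio of these paralogs thus shifted toward Pds5a in each knockout library. Wapal, the gene of the release factor WAPL, was not called, with a log2 fold change of 0.10 (0.018 to 0.19 with each library left out in turn) and a 95% interval from -0.13 to 0.32.

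Esco2 encodes the acetyltransferase that acts on SMC3 during DNA replication and lies at chr14:66437875-66452831 on the minus strand, with 11 exons in its longest coding transcript. Its normalized counts were 74.0, 53.0 and 43.9 in Rnf40_WT and 5.10, 3.13 and 9.44 in Rnf40_KO. These values stood for 62, 52 and 55 reads in Rnf40_WT and for 5, 3 and 10 reads in Rnf40_KO, so that replicate 2 of Rnf40_KO was at the floor of 3 reads. The mean fell from 57.0 ± 15.4 to 5.89 ± 3.23 (SD, n = 3 each), and the log2 fold change with a pseudocount of 1 was -3.15 (SE 0.40, limma adjusted p = 5.82e-05). The 95% interval, from -4.03 to -2.26, was the widest of the 10 genes. With a pseudocount of 10 in place of 1 it was -2.07.

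Esco1, the gene of the acetyltransferase that works outside S phase as well, went the other way. It rose from 278, 244 and 232 to 375, 338 and 329, with a log2 fold change of 0.47 (SE 0.11, limma adjusted p = 0.0045). Per kilobase, Esco1 stood at 2.47, 3.02 and 3.46 times Esco2 in Rnf40_WT and at 48.4, 71.0 and 22.9 times Esco2 in Rnf40_KO. The Esco2 values in Rnf40_KO rest on at most 10 reads, and the part of counting error in this wide range was not tested. Cdca5, the gene of sororin, which is recruited by acetylated cohesin and opposes WAPL, fell with Esco2 from 86.0, 69.3 and 80.7 to 18.4, 19.8 and 15.1 (log2 fold change -2.09, SE 0.24, limma adjusted p = 2.63e-05). Hdac8, the gene of the enzyme that removes the acetyl groups from SMC3, fell by 0.51 on the log2 scale (SE 0.14, limma adjusted p = 0.0097). Without replicate 1 of Rnf40_KO the value for Hdac8 was -0.40 and the adjusted p 0.052, against 0.0043 to 0.039 over the other libraries left out in turn and the other settings.

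**Figure D2:**
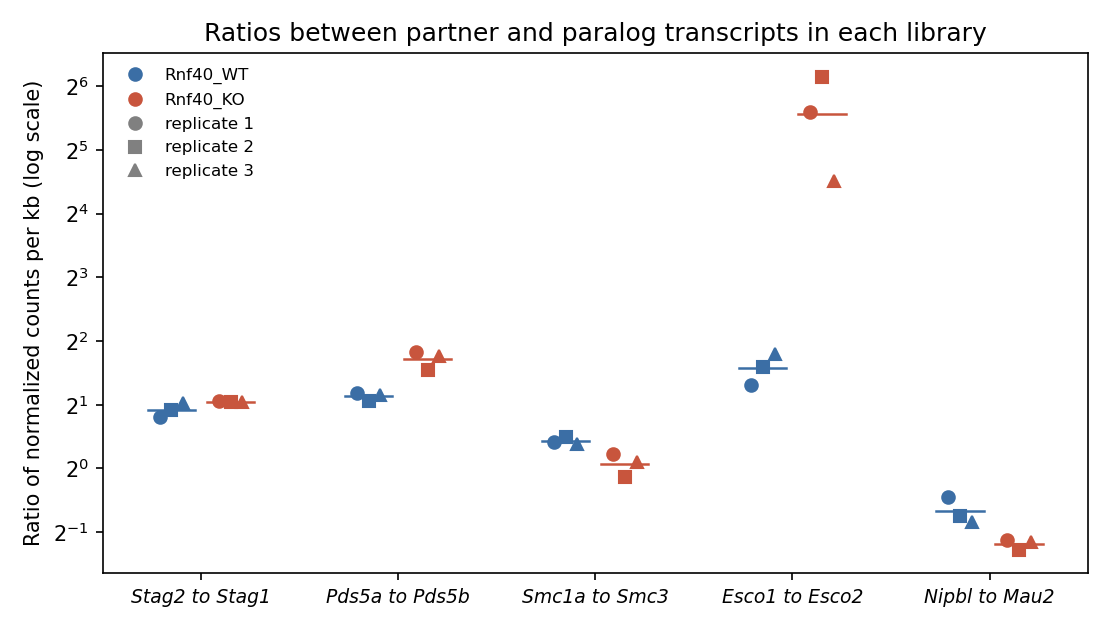
Ratio of normalized counts per kilobase of transcript for pairs of partner or paralog genes in each library, on a log axis; symbols are libraries and short lines are group means (n = 3). The Esco1 to Esco2 ratio is between 2.47 and 3.46 in Rnf40_WT and between 22.9 and 71.0 in Rnf40_KO.

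Ctcf encodes the zinc finger protein that stops loop extrusion and lies at chr8:108160468-108206822 on the plus strand. It had normalized counts of 995, 850.5 and 785 in Rnf40_WT and 929.9, 1049 and 925 in Rnf40_KO. The highest wild-type library lay among the knockout libraries. The log2 fold change was 0.15 with a 95% interval from -0.06 to 0.36 (limma adjusted p = 0.23). Without replicate 1 of Rnf40_WT it was 0.24 and past the threshold (adjusted p = 0.043), against 0.12 to 0.55 over the other libraries left out in turn and the other settings.

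Of 6 genes for proteins that work with CTCF or also bind DNA at chromatin contacts, 3 were higher and 2 lower, beside 23.3% and 24.1% of all genes tested. Chd8, a chromatin remodeler that binds CTCF, rose by a log2 fold change of 0.52 (SE 0.07, limma adjusted p = 0.00013), and its exons share 824 bases with a noncoding gene on the opposite strand. Zfp143 and Yy1, which bind promoter ends of loops, rose by 0.45 and 0.32. Maz, a zinc finger protein found beside CTCF, fell from 1941, 1561 and 2052 to 977, 907 and 962 (log2 fold change -0.95, SE 0.10, limma adjusted p = 8.10e-06). Adnp was lower by a smaller amount, -0.18, and lost its call in 4 of the 6 fits that left out a library and with upper-quartile size factors (-0.13). The annotated exons of Adnp share 4393 bases with Dpm1 on the same strand, so the reads of these genes may not be separate. Ldb1 was not called, with a log2 fold change of -0.14 and a 95% interval from -0.29 to 0.01, and its exons share 177 bases with Pprc1 on the opposite strand. Without replicate 2 of Rnf40_WT it was -0.19 and past the threshold (adjusted p = 0.040), against 0.11 to 0.33 over its other alternatives.

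For Smc3, Stag1, Nipbl, Pds5a and Ctcf, which were not called, the point estimates were between 0.10 and 0.15 and each interval included 0. With each library left out in turn they ranged from 0.045 to 0.15 for Smc3, 0.034 to 0.21 for Stag1, 0.045 to 0.19 for Nipbl, 0.060 to 0.21 for Pds5a and 0.071 to 0.24 for Ctcf. Their intervals overlap those of Rad21 and Stag2, and whether the changes differ between these genes was not tested. Fold changes also differed with transcript length over the whole table. Among genes with a mean normalized count above 100, the median log2 fold change was -0.15 for 2635 genes with transcripts under 2 kb, -0.01 for 5744 genes of 2 to 5 kb and 0.13 for 2102 genes over 5 kb. The transcripts of the 10 genes run from 2.91 kb (Esco2) to 8.82 kb (Nipbl). The part of length in the small differences was not tested.

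Per kilobase of transcript, the order of the 10 genes was nearly the same in both groups. Rad21 led with 522 ± 57.8 normalized counts per kilobase in Rnf40_WT and 624 ± 14.6 in Rnf40_KO (SD, n = 3). Smc1a at 359 ± 20.4 and Stag2 at 286 ± 15 followed in Rnf40_WT, and they changed places in Rnf40_KO, where Stag2 stood at 343 ± 15.5 and Smc1a at 298 ± 17.1. Smc3, Pds5a and Ctcf came next in Rnf40_WT at 266 ± 17.1, 242 ± 20.0 and 232 ± 28.4. Smc3 was above both others in each of the 3 libraries, while Pds5a and Ctcf did not differ beyond their spread. Stag1 stood at 152 ± 18.8 there, and Nipbl and Pds5b, at 114 ± 12.5 and 110.1 ± 10.1, did not differ beyond their spread. Esco2 was the lowest in both groups, with 19.6 ± 5.30 in Rnf40_WT and 2.02 ± 1.11 in Rnf40_KO. These levels use the longest coding transcript in the annotation, and the models that the authors counted may differ.

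Replicate 3 of Rnf40_WT had the lowest normalized count of its group for 9 of the 10 genes, all but Smc3, and for 37.4% of all genes tested, and replicate 1 the highest for 8 of the 10 and for 30.1%. In Rnf40_KO, replicate 3 was the lowest for 7 of the 10 genes and for 34.3% of all genes tested, and the highest for Esco2. In genes over 5 kb, the median deviation from the group mean was -0.05 on the log2 scale in replicate 3 of Rnf40_WT and -0.04 in replicate 3 of Rnf40_KO, and in genes under 2 kb it was 0.06 in both. In genes of 2 to 5 kb, the class of 6 of the 10 genes, it was -0.026 in replicate 3 of Rnf40_WT and 0.012 in replicate 3 of Rnf40_KO. Replicate 1 of Rnf40_WT had median deviations of -0.047, -0.015 and 0.0024 in genes under 2 kb, of 2 to 5 kb and over 5 kb. Those of replicate 2 of Rnf40_WT were -0.020, 0.031 and 0.041, so replicate 1 was not the highest in the longer classes. No exon of the 10 genes overlapped an exon of another annotated gene, and no run of 50 bases of their longest coding transcripts recurred in a coding transcript of another gene on either strand. Pseudogenes were not searched.

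Around the 10 genes, 23 further genes of the cohesin cycle were listed in 4 groups, and 21 of them were tested. Of these 21 genes, 15 were lower and 2 higher, beside 24.1% and 23.3% of all genes tested. The median log2 fold change was -0.70, against -0.0035 over all genes tested and 0.12 over the 10 genes. Among the 5 genes of loading, acetylation and release, Cdca5 and Hdac8 were lower, Mau2 and Esco1 higher, and Wapal was not called.

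All 6 genes of separation and protection of cohesin in mitosis were lower, with a median log2 fold change of -2.47. Sgol1, the gene of the shugoshin that shields cohesin at centromeres, had 118, 104 and 132 normalized counts in Rnf40_WT and 16.3, 12.5 and 8.50 in Rnf40_KO (log2 fold change -3.18, SE 0.27, limma adjusted p = 2.57e-06). Espl1 encodes separase, the protease that opens the ring at anaphase, and fell from 131, 112 and 155 to 13.3, 21.9 and 14.2 (-2.96, SE 0.25). Plk1, the kinase of the prophase removal of cohesin from chromosome arms, fell by 3.12 on the log2 scale (SE 0.20). Pttg1, which encodes the separase inhibitor securin, fell least of the 6, by 0.64 (SE 0.13). Gsg2, the gene of the kinase haspin, and Sgol2 fell by 1.97 and 1.34. The exons of Sgol2 share 2455 bases with Kctd18 on the opposite strand, and whether counting used the strand is not given in the sources used here.

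All 7 genes of cohesion at the replication fork were lower as well, with a median log2 fold change of -0.86. Dscc1, a subunit of the clamp loader that works with ESCO2, fell from 35.8, 20.4 and 13.6 to 6.12, 8.35 and 5.67 (log2 fold change -1.56, SE 0.44, limma adjusted p = 0.011). Without replicate 1 of Rnf40_WT the value for Dscc1 was -1.21 and the adjusted p 0.062, against 0.0054 to 0.038 over the other libraries left out in turn and the other settings, and with a pseudocount of 10 the value was -0.94. Wdhd1, a fork protein, fell from 184, 179 and 173 to 65.3, 98.1 and 66.1, a log2 fold change of -1.24. Dscc1 fell more than Wdhd1 except with that pseudocount, where Wdhd1 was at -1.15, and without replicate 1 of Rnf40_WT, where Wdhd1 was at -1.22. The fork protection genes Timeless and Tipin fell by 0.95 and 0.63 on the log2 scale, the helicase gene Ddx11 by 0.70, and the clamp loader genes Chtf18 and Chtf8 by 0.86 and 0.32. Exons of Chtf18 and Timeless share 399 and 113 bases with genes on the opposite strand.

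The germline forms of the subunits and of CTCF gave no call in the main limma fit. Of the 3 tested, 2 (Stag3 and Ctcfl) had an unadjusted limma p under 0.05. edgeR called 1 of them (Ctcfl) and DESeq2 0. Rec8 and Stag3 had log2 fold changes of 0.45 (95% interval -0.14 to 1.04) and -0.62 (-1.20 to -0.04), with limma adjusted p of 0.20 and 0.072. Without replicate 3 of Rnf40_WT the value for Rec8 was 0.81 (limma adjusted p = 0.0027), while without replicate 1 of Rnf40_WT it was 0.21 (0.53). Rec8 was also called with the replicate number as a block in limma (0.038), and its adjusted p was 0.097 to 0.53 over the alternatives without a call. Without replicate 2 of Rnf40_KO the value for Stag3 was -0.88 (0.023), against 0.050 to 0.22 over its other alternatives. Ctcfl, the germline paralog of Ctcf, had 65.7, 54.0 and 56.7 normalized counts in Rnf40_WT and 72.4, 82.4 and 93.5 in Rnf40_KO (log2 fold change 0.48, adjusted p = 0.056). It passed the threshold with upper-quartile size factors (adjusted p = 0.039), in the quasi-likelihood test of edgeR (0.0496) and without replicate 1 of Rnf40_WT (0.043), and its adjusted p ranged up to 0.19. Exons of Ctcfl share 171 bases with a gene on the opposite strand, and 3.76% of its 50-base runs recur in other coding genes. Smc1b had between 0.799 and 5.10 normalized counts per library and was not tested, and Rad21l was not in the table.

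**Figure D3:**
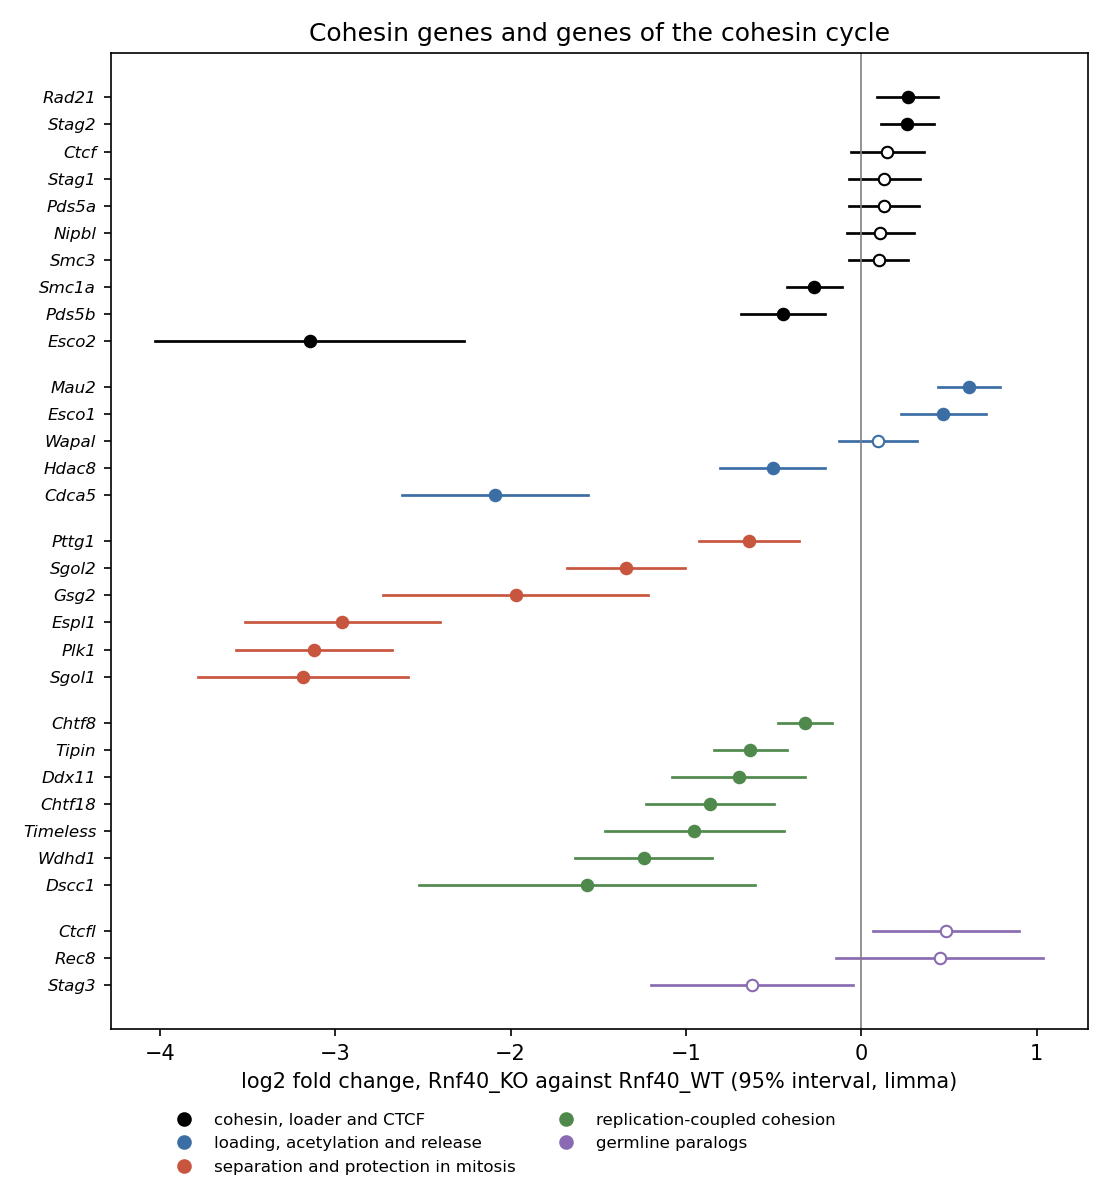
Log2 fold change of Rnf40_KO against Rnf40_WT with its 95% interval (limma, n = 3 libraries per group) for the 10 genes and the 21 tested genes of the cohesin cycle; filled points have an adjusted p under 0.05. Esco2, Cdca5 and the genes of mitosis and replication lie to the left of 0, while the point estimates of the ring subunits lie between -0.27 and 0.26.

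The methods of the series name other criteria, namely a mean above 15, p under 0.05 without adjustment, and a change above 1 on the log2 scale in either direction. They were applied here to the p and fold changes of limma, so the counts are not those of the study. By these, Esco2 was the only one of the 10 genes called, beside 5.7% of all genes tested that were lower. Of the cohesin cycle genes, 7 were lower and 0 higher by these criteria, beside 934 lower and 696 higher of the 16378 genes tested. At an adjusted p under 0.05 in limma, 15 cohesin cycle genes were lower and 2 higher.

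Genes of dividing cells moved with Esco2. All 12 markers of proliferation were lower in Rnf40_KO, beside 24.1% of all genes tested, with a median log2 fold change of -2.16. Their summed normalized counts were 9086, 7816 and 7927 in Rnf40_WT and 3359, 3338 and 3226 in Rnf40_KO. By point estimate the largest fall was that of the mitotic cyclin gene Ccnb1, at -3.24 (SE 0.23, limma adjusted p = 5.90e-07). Top2a at -3.20 (SE 0.15) and Bub1 at -3.11 (SE 0.25) did not differ from it beyond their spread. The smallest was that of Rrm2, a subunit of ribonucleotide reductase, at -0.28 (SE 0.07), with Pcna near it at -0.38 (SE 0.07). None of the 12 was at 0 in any library. In bulk RNA, fewer cycling cells and less RNA per cell cannot be told apart, and the part of proliferation in the fall of Esco2 and of the genes above was not tested.

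Among 15499 tested genes with a mean normalized count above 15, the 5 with values over the 6 libraries most like those of Esco2 were Cdkn3, Bub1, Tnnc1, Opn3 and Cenpa. The measure is the root mean square difference of log2(normalized count + 1), each taken from the gene's own Rnf40_WT mean, and it was 0.19, 0.20, 0.26, 0.29 and 0.33. Cdkn3, which encodes a phosphatase of cyclin-dependent kinases, had 76.4, 55.1 and 53.5 normalized counts in Rnf40_WT and 4.08, 3.13 and 9.44 in Rnf40_KO. Bub1, a kinase of the spindle checkpoint and 1 of the 12 proliferation markers, went from 233, 192 and 159 to 24.5, 14.6 and 27.4. Cenpa encodes the histone H3 variant of centromeres and went from 96.7, 89.7 and 97.4 to 11.2, 7.31 and 11.3. Tnnc1 encodes a troponin of striated muscle and went from 63.3, 56.1 and 67.1 to 5.10, 3.13 and 11.3. Opn3 encodes an opsin and went from 31.1, 35.7 and 24.0 to 2.04, 2.09 and 5.67. In Rnf40_KO, Opn3 was below the floor of 3 reads in replicates 1 and 2, and Cdkn3 and Tnnc1 were at it in replicate 2. The likeness to Esco2 thus rests in part on values near the floor.

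Markers of other cell types were read in the same libraries, beside 24.1% of all genes tested that were lower and 23.3% that were higher. Of 7 fibroblast markers, 5 were lower and none higher, with the collagen genes Col1a1, Col1a2 and Col3a1 at 56.5%, 20.8% and 58.9% of their Rnf40_WT means, and the summed normalized counts of the 7 were 331897, 337413 and 385540 in Rnf40_WT and 183174, 178685 and 191907 in Rnf40_KO. Of 9 macrophage markers 8 were tested, with 2 higher (Ptprc and Cd14) and 2 lower (Lyz2 and Fcgr1). Their sums were 5417, 5818 and 9200.3 in Rnf40_WT and 3787, 3533 and 3867 in Rnf40_KO, most of it from Lyz2. Of 5 endothelial markers 3 were higher, Pecam1, Cdh5 and Kdr, and the sums were 148, 58.1 and 63.9 in Rnf40_WT and 189, 285 and 191 in Rnf40_KO. Tek, which was not called, held most of the sum of replicate 1 of Rnf40_WT, with 96 reads against 18 of Kdr, and Kdr held more reads than Tek in 4 of the 6 libraries. Of 5 epithelial markers 2 were tested and none was called, with sums of 434, 444 and 779 in Rnf40_WT and 559, 792 and 763 in Rnf40_KO, most of it from Krt19. The defining Epcam, with too few reads to be tested, had 0, 0 and 1.60 normalized counts in Rnf40_WT and 4.08, 4.17 and 8.50 in Rnf40_KO, without overlap of the groups, and no other listed marker was at 0 in more than 1 library. The part of these cells in the differences of the 10 genes was not tested.

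Promoter sequences were taken from RefSeq (GRCm38.p6) for 6 of the 10 genes, Smc1a, Smc3, Stag1, Pds5a, Pds5b and Ctcf, and for 18 of the 23 further genes. Rad21, Stag2, Nipbl and Esco2 had no entry. The 250 bases before the start were searched on both strands for motifs known from cell-cycle promoters, chosen after the values were seen. TTTGAA, the core of the cell-cycle genes homology region, was in 16.0% of all 32851 promoter windows, CCAAT in 33.8%, and the E2F-type runs TTTCCCGC and TTTGGCGC in 0.895% and 0.417%. TTTGAA was in 2 of the 6 promoters (Pds5b and Ctcf), in 4 of 18 of the cohesin cycle and in 4 of 11 of the proliferation markers. CCAAT was in 3 of 6, 9 of 18 and 10 of 11. Of the 6 promoters, TTTCCCGC was in that of Stag1, starting 17 bases before the start, and TTTGGCGC in that of Pds5a. A match is a description of the letters and not a bound site.

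The last 120 bases before the start (GRCm38.p6) are shown for the PDS5 paralogs, whose transcripts differed in call, for Smc1a, which fell, and for Cdca5, which fell with Esco2. Capitals mark matches to the motifs above on either strand, and no match overlaps another. Pds5b (chr5:150673707-150673826, plus strand) has TTTGAA starting 32 bases before the start and CCAAT on the minus strand at 66. Pds5a (chr5:65698237-65698356, minus strand) has only TTTGGCGC on its opposite strand, at 106. Smc1a (chrX:152016308-152016427, plus strand) has CCAAT on the minus strand at 19, and Cdca5 (chr19:6084977-6085096, plus strand) has TTTGAA at both 17 and 9.
Pds5b: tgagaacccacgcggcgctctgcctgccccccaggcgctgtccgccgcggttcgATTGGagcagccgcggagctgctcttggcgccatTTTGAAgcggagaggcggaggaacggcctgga
Pds5a: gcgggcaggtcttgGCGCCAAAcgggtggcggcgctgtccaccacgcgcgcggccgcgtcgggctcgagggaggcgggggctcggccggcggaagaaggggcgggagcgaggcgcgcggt
Smc1a: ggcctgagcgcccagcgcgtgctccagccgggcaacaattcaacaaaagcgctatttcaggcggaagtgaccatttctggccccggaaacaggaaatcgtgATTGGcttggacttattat
Cdca5: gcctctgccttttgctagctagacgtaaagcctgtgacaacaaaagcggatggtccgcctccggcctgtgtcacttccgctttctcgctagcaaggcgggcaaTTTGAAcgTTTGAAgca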

How the data were processed

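RNA was sequenced from 3 Rnf40_WT and 3 Rnf40_KO libraries, made with a directional kit. The authors aligned reads with the mouse transcriptome (mm9) and deposited, per gene and library, a signal that is the read count divided by a DESeq size factor. The submitters' processing notes name Bowtie2 2.1.0 and DESeq 1.14.0, and the counting tool is not given in the sources used here. Reads were recovered from the smallest positive value of each library, and genes were kept with filterByExpr by group. limma (version 3.58.1, trend) was run in R 4.3.3 on log2(value + 1), with group as the only term, and was tested on simulated data. Alternatives were other size factors, edgeR 4.0.16 and DESeq2 1.42.0 on the recovered reads, other filters and pseudocounts, a replicate block, each library left out, and the criteria of the study. Positions and transcript lengths come from GENCODE (mm9). The genes, the lists and the rule for named genes (all 10 genes, list genes with large or opposite changes, and the 5 genes most like Esco2) were chosen with earlier results of these data known. Of the listed genes, 1 was not in the table. Floors and intervals cover counting error or the spread between libraries only.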

Additional observations from a re-analysis of the deposited data

How the results depend on the processing

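Recomputed DESeq2, TMM and upper-quartile size factors, edgeR, DESeq2, both other filters and both other pseudocounts kept every count below within 1.5 times its value. Over these and the replicate block, 7289 to 8217 genes in all were called (7764 as reported), with 7797 in the quasi-likelihood test of edgeR and 7289 in DESeq2 on the recovered reads. With each library left out in turn, 6393 to 7713 genes in all, 2 to 3 of the 10 genes lower, 1 to 3 higher, and 14 to 16 cohesin cycle genes lower and 2 to 3 higher were called. The count of 1 gene higher came without replicate 1 or 2 of Rnf40_KO, where Rad21 lost its call. With the study's criteria applied to the p and fold changes of limma, 1630 genes in all were called. Of these, 1 of the 10 genes was lower and 0 higher, and 7 cohesin cycle genes were lower and 0 higher. These criteria change the minimum mean, the p and the minimum fold together, and their parts were not tested apart. Of 858 single-gene values over 54 genes, those beyond the 10 genes added after seeing the data, 830 kept their direction and side of the threshold, 17 lost the call, 9 gained it and 2 changed sign, both for genes without a call: with a library left out Smc5 ranged from -0.016 (without replicate 2 of Rnf40_KO) to 0.14 and Pcdhb5 from -0.41 to 0.027 (without replicate 1 of Rnf40_KO). The cause was not tested.

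Deviations of same-numbered libraries of the groups had correlations across genes of 0.01, 0.02 and 0.02, within the range of the other pairs (-0.053 to 0.037). Counting error enters these deviations too, so the correlations cannot decide whether same-numbered libraries share more than a number. Replicate 3 deviated in the same direction in both groups in genes under 2 kb and over 5 kb, but not in genes of 2 to 5 kb. With the replicate number as a block, 8217 genes in all, 3 of the 10 genes lower and 2 higher, and 15 cohesin cycle genes lower and 3 higher were called. Rec8 (0.45, limma adjusted p = 0.038 with the block) was the added gene, and of the 54 single genes no other call changed. Esco2, Dscc1, Sgol1, Pcdhb3, Pcdhb14 and Pcdhb19 could not be tested with at least 10 reads in every library, and the few reads of Esco2 in Rnf40_KO limit the size of its fall.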

Other observations

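The SMC5/6 complex, a relative of cohesin that works in DNA repair, was listed with 6 genes. Nsmce1, a RING subunit, rose from 671, 630.2 and 722 to 835, 824 and 861 normalized counts (log2 fold change 0.32, SE 0.08, limma adjusted p = 0.0055), and Nsmce4a, a kleisin subunit, fell from 637, 676 and 652 to 409, 428 and 459.8 (-0.60, SE 0.08, adjusted p = 0.00012). These were 1 higher and 1 lower of the 6, beside 23.3% and 24.1% of all genes tested. Smc5, Smc6, Nsmce2 and Ndnl2 were not called, and their log2 fold changes lay between -0.17 and 0.10, and between -0.28 and 0.16 with each library left out in turn. Ndnl2 passed the threshold without replicate 1 of Rnf40_WT, at -0.28 with an adjusted p of 0.026, against 0.17 to 0.51 over its other alternatives.

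The clustered protocadherin beta genes, whose promoters are known to be bound by CTCF and cohesin in neurons, were listed with 21 genes, of which 9 had enough reads to be tested. Of these 9, 6 were lower and 0 higher at an adjusted p under 0.05 in limma, beside 24.1% and 23.3% of all genes tested, and in no setting was any of them called higher. Pcdhb17 had 127, 149.9 and 173 normalized counts in Rnf40_WT and 39.8, 73.1 and 45.3 in Rnf40_KO (log2 fold change -1.53, SE 0.23, adjusted p = 0.00021). Pcdhb22 went from 107, 145 and 148 to 48.9, 54.3 and 68.9 (-1.21, SE 0.20). Pcdhb14, Pcdhb18 and Pcdhb20 fell by 2.08, 1.45 and 1.40 on the log2 scale, and by 1.12, 1.08 and 1.11 with a pseudocount of 10. Pcdhb14 rests on 4, 11 and 2 reads in Rnf40_KO, against 15, 21 and 40 in Rnf40_WT. Pcdhb3, Pcdhb5 and Pcdhb16 were not called. The call of Pcdhb19 (-1.11) was lost in 3 of the 6 fits that left out a library. The summed normalized counts of the 21 genes were 564, 622 and 606 in Rnf40_WT and 224, 296 and 263 in Rnf40_KO. These genes share stretches of sequence: 5.16% of the 50-base runs of Pcdhb17 and 3.94% of those of Pcdhb22 recur in another coding gene, so their values may hold reads of neighbours.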
